A study of Mus musculus with 20 samples.

Results

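The genes described here are 40 genes of the mitotic cell cycle and of DNA replication, out of 49585 genes counted in each library. They were listed by mouse symbol, and all 40 were found and passed the count filter in every comparison. By role, 19 act in mitosis, 13 in DNA replication, 5 are G1 cyclins and 3 are transcription factors that drive cell cycle genes.

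The libraries were made from whole ovaries of B6D2F1 mice. In 1 set, Figla+/- controls and Figla-/- knockouts were taken at embryonic day 18.5 (E18.5; 4 libraries of each) and on postnatal day 0 (P0; 3 of each). In the other set, Lhx8+/- controls and Lhx8-/- knockouts were taken at P0 (3 of each), and the library names call these controls wild type. The mutant alleles are not described further in the sources used here, and neither is whether ovaries were pooled or which samples are separate animals. A p-value here therefore reflects only how far these samples vary, and part of that variation may be technical. FIGLA and LHX8 are transcription factors of oocytes, and the comparisons ask which genes depend on them around birth.

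Cyclins and their kinases carry a cell through division: G1 cyclins open the cycle, the origin recognition complex, CDC6, CDT1 and the MCM helicase prepare DNA for copying, and CDK1, Polo-like and Aurora kinases run mitosis. E2F1 is known for driving the replication genes, and MYBL2 and FOXM1 the mitotic genes. Oocytes of the perinatal ovary have left mitosis and rest in meiotic prophase, while the somatic cells around them, blood cells and vessels can divide, so a cell cycle transcript in a whole ovary can come from many cell types.

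The title and the library name of a sample disagreed about its genotype in 6 of 14 Figla libraries and in 6 of 6 Lhx8 libraries, and samples were grouped here by library name. Every direction in the Lhx8 set turns if the titles are right. Figla stood at 21.9, 3.78 and 26.7 CPM (read counts scaled to library size) in E18.5 controls against 0.828, 1.26 and 1.53 in knockouts, and at 32.8, 36.8 and 41.5 CPM in P0 controls against 0.183, 0.637 and 0.300 in knockouts. Lhx8 stood at 93.9, 103 and 90.4 CPM in the Lhx8 controls against 17.0, 30.5 and 23.7 in the knockouts, although these libraries read transcript ends and the deleted part of the gene is not given in the sources used here, so this may not check the labels. In the same libraries Nobox stood at 159, 187 and 155 CPM against 5.27, 26.9 and 14.0, and Dppa3 at 349, 540 and 458 CPM against 39.5, 93.7 and 69.3. The log2 fold change was below 0 for 8 of 10 germ cell markers and above 0 for 2. What these values say about the labels was not tested. At E18.5 the libraries of control replicates 1 and 2, and of knockout replicates 1 and 2, were near-identical pairs, each summed into 1 sample (replicate 1-2), which leaves 3 samples per group. The library labelled E18.5 control replicate 3 was the shallowest and went against its label in oocyte genes. Besides Figla at 3.78 CPM, it had Nobox at 2.06 CPM (73.9 and 108 in the other controls, up to 0.315 in knockouts), Dppa3 at 0.687 CPM (46.6 and 68.8, up to 2.65 in knockouts) and Lhx8 at 6.18 CPM (94.3 and 118.5, with 17.8, 6.61 and 43.9 in knockouts). Its title calls it a knockout, as does the title of control replicate 4. Total counts were 5583392 to 13408022 in the Figla libraries and 8297204 to 9978350 in the Lhx8 libraries, of which the 40 genes took 0.267% to 0.541% and 0.330% to 0.426%. The ovary's defining cells were represented: summed germ cell markers reached at least 766.5 CPM and summed pregranulosa markers at least 1050 CPM in every Figla sample, and at least 1311 and 1112 CPM in every Lhx8 sample. The pregranulosa marker Foxl2 was nearly absent from all Lhx8 samples, at 0 in 1 control and 1 knockout and at most 0.868 CPM.

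The promoter sequences below show the letters on which cell cycle promoters are usually compared. They come from RefSeq (GRCm38.p6), which had an entry for 31 of the 40 genes and 33 promoters. Each sequence is the 150 bases before the annotated start, 5′ to 3′ on the gene's strand, with the motifs in capitals. The cell cycle homology region (CHR) was searched as TTTGAA and, in its other common form, as TTTAAA. The second motif was the CCAAT box. E2F letters were searched in 4 forms. TTGGCGC is the form seen in Mki67 below, TTCGCGC is the form that overlaps it in Mcm6, a further form searched was TTCCCGC, and the last form searched was TTGCCGC. Both strands were searched, so that a motif can appear as its reverse complement. The first 4 genes were lower in both knockouts at P0, and the last 3 passed the test in neither.
Mybl2, chr2:163054485-163054634, plus strand: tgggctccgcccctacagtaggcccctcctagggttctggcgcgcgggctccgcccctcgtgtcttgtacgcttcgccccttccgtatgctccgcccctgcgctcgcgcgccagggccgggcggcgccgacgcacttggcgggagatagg
Birc5, chr11:117849087-117849236, plus strand: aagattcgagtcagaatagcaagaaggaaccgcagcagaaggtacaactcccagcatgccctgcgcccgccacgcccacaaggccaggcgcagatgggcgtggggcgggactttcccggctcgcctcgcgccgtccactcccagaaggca
Plk1, chr7:122159285-122159434, plus strand: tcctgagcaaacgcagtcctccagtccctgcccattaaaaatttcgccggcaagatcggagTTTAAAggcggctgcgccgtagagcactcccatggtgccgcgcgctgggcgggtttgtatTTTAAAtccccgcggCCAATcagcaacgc
Cdca8, chr4:124936918-124937067, minus strand: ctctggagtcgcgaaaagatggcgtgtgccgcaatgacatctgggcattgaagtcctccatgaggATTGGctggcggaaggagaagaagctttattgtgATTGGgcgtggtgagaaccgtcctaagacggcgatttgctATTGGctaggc
Mki67, chr7:135716380-135716529, minus strand: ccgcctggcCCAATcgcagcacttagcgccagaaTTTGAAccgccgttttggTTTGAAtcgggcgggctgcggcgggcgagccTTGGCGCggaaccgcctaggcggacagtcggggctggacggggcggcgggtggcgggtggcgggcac
Top2a, chr11:99024190-99024339, minus strand: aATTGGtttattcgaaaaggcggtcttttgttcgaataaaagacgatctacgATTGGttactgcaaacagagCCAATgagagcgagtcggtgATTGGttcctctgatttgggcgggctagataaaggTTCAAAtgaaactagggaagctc
Mcm6, chr1:128359706-128359855, minus strand: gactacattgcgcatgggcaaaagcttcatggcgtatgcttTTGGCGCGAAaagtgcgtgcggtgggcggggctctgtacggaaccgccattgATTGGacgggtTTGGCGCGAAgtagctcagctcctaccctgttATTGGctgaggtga

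Over the 250 bases before the start, a CHR stood in 10 of 16 promoters of mitosis genes (62.5%) and in 2 of 12 of replication genes (16.7%), against 25.2% of all 32851 promoters. E2F letters stood in 3 of 16 (18.8%) and in 8 of 12 (66.7%), against 7.89% of all promoters. CCAAT boxes were found in 15 of 16 (93.8%) and 10 of 12 (83.3%), against 33.8%. Mcm6 carries 2 stretches in which 2 E2F motifs overlap. Of the 6 promoters of genes lower in both knockouts, 2 held a CHR, 3 a CCAAT box and 0 the E2F letters, and of the 21 promoters of genes called in neither, 9, 18 and 10 did. Only the 4 listed forms were searched, so the 0 does not show that these promoters lack E2F sites. The E2f1 and Cdca8 windows also lie inside the span of the counted gene, downstream of its outermost annotated start. A match in these letters is a description and not a shown binding site, and no difference between these sets of promoters was tested.

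Levels were also scaled by the summed length of a gene's annotated exons (RPKM), which may differ from the length of the transcript made. In P0 controls of the Figla set they ranged from 4.28 to 35.9 RPKM among the mitosis genes and from 2.13 to 40.2 among the replication genes. Ccnd2, the D-type cyclin of granulosa cells, was highest at 58.3 ± 4.0 RPKM (SD, n = 3), followed by Mcm5 at 40.2 ± 3.87, Mcm6 at 36.1 ± 6.45 and Incenp at 35.9 ± 7.50, of which the last 3 lie within each other's spread. Cdc6, the loader of the MCM helicase, was lowest at 2.13 ± 1.18 RPKM. The median was 16.5 RPKM over the replication genes, 12.9 over the mitosis genes, 5.84 over the G1 cyclins and 16.0 over the transcription factors.

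At P0, ovaries without Figla had lower levels of 14 of the 40 genes and a higher level of 1, Ccnd1. All 3 transcription factors fell (Mybl2, E2f1 and Foxm1), with 8 of 19 mitosis genes and 3 of 13 replication genes. Over all 17321 genes tested, 16.0% passed edgeR's quasi-likelihood test at a Benjamini-Hochberg adjusted p under 0.05 (called), with 10.9% lower and 5.12% higher as shares of all genes tested. The log2 fold change was below 0 for 34 of the 40 genes, with a median of -0.45 against 0.02 over all genes tested. The groups did not overlap for 20 genes lower in knockouts and 3 higher, against 20.3% and 15.3% of all genes tested. Because these are whole ovaries, fewer cells of a type and less RNA per cell cannot be told apart.

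The transcription factors were led by Mybl2, the B-Myb factor of the mitotic gene programme. Mybl2 stood at 65.2, 63.3 and 94.2 CPM in controls and at 21.5, 18.5 and 19.5 CPM in Figla knockouts. All 3 knockouts lay far below the lowest control, and the level fell 3.74-fold (-1.90 on the log2 scale, SE 0.17, adjusted p = 4.1e-05). E2f1, the activator of S phase genes, was at 49.1, 56.9 and 71.0 CPM in controls and 29.4, 34.2 and 31.9 CPM in knockouts (log2 fold change -0.89, SE 0.15, adjusted p = 0.00248). The E2f1 groups did not overlap. Foxm1, the forkhead factor of G2 and mitosis, moved least, from 106, 81.8 and 88.8 CPM to 73.0, 66.2 and 64.2 CPM (log2 fold change -0.44, SE 0.12, adjusted p = 0.0340).

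**Figure D1:**
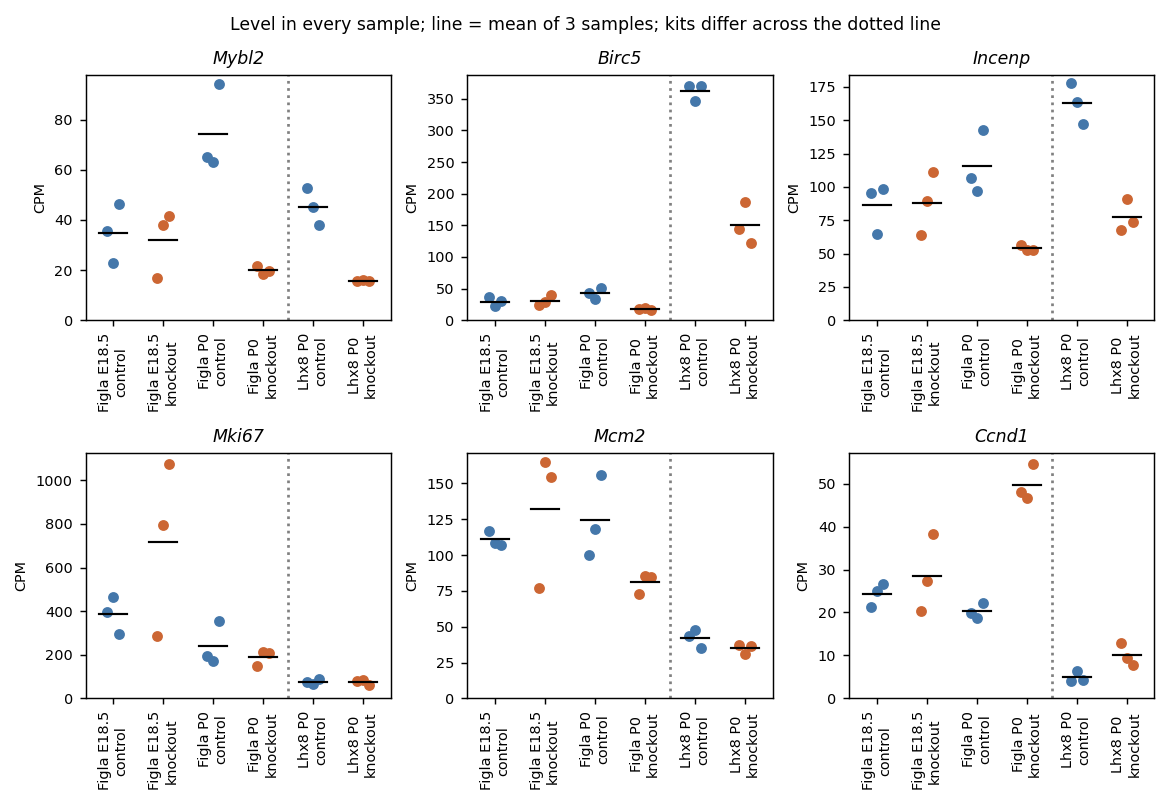
CPM (vertical axis, linear from 0) of 6 genes in every sample of the 6 groups, with controls in blue, knockouts in orange and the mean of 3 samples as a line; the kits differ across the dotted line, so levels are compared only on 1 side of it. Mybl2, Birc5 and Incenp lie lower in all knockout samples at P0 in both sets, Ccnd1 lies higher, and Mki67 overlaps between control and knockout in all 3 comparisons.

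Among the mitosis genes, 3 of the 4 subunits of the chromosomal passenger complex fell in the P0 Figla knockouts. This complex corrects the attachment of chromosomes to the spindle, with Aurkb as its kinase and Birc5 (survivin), Cdca8 (borealin) and Incenp as its other subunits. Birc5 was at 42.8, 33.8 and 51.6 CPM in controls and 17.7, 19.3 and 16.0 CPM in knockouts (log2 fold change -1.27, SE 0.17, adjusted p = 0.000584). Incenp was at 107, 97.0 and 143 CPM in controls and 56.0, 53.0 and 53.0 CPM in knockouts (log2 fold change -1.09, SE 0.14, adjusted p = 0.000559). For both genes the lowest control lay far above the highest knockout. Cdca8 was at 37.6, 37.6 and 49.0 CPM against 17.9, 24.0 and 20.9 CPM (log2 fold change -0.98, SE 0.16, adjusted p = 0.00204). Aurkb, at 11.2, 12.99 and 20.7 CPM in controls and 11.2, 14.0 and 13.6 CPM in knockouts, overlapped between the groups and did not pass the test (log2 fold change -0.21, SE 0.23, adjusted p = 0.591).

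The mitotic kinases and the spindle checkpoint gave 5 further calls. Plk1, the Polo-like kinase of mitotic entry, was at 30.6, 27.1 and 38.0 CPM in controls and 13.1, 17.8 and 18.2 CPM in knockouts (log2 fold change -0.96, SE 0.18, adjusted p = 0.00451). Aurka, the centrosomal Aurora kinase, was at 17.9, 21.0 and 28.9 CPM against 12.6, 12.7 and 12.2 CPM (log2 fold change -0.85, SE 0.19, adjusted p = 0.0120). In both kinases the 3 knockouts lay below the 3 controls. Cdk1, the kinase of mitotic entry, was at 54.3, 53.3 and 72.4 CPM against 38.6, 38.5 and 35.5 CPM (log2 fold change -0.67, SE 0.14, adjusted p = 0.00838). Bub1, a checkpoint kinase, was at 105, 89.4 and 114 CPM against 56.9, 60.5 and 53.4 CPM (log2 fold change -0.85, SE 0.12, adjusted p = 0.000848). Bub1 had the smallest standard error of the 5. Ttk, the upstream checkpoint kinase, was at 56.0, 51.3 and 73.2 CPM against 40.7, 48.3 and 37.1 CPM (log2 fold change -0.51, SE 0.16, adjusted p = 0.0486), close to the threshold.

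The other 11 mitosis genes did not pass the test in P0 Figla knockouts, with log2 fold changes from -0.66 (Ccnb1) to 0.12 (Top2a). They include the common proliferation markers: Mki67 was at 194, 170 and 353 CPM in controls and 149, 215 and 209 CPM in knockouts (log2 fold change -0.32, SE 0.24, adjusted p = 0.419). Top2a, topoisomerase II alpha, was at 114, 96.9 and 139 CPM against 110, 148 and 120 CPM (log2 fold change 0.12, SE 0.15, adjusted p = 0.638). Both overlap between groups. Ccnb2 and Cenpe had groups that did not overlap, with log2 fold changes of -0.45 and -0.45 and adjusted p of 0.0689 and 0.0595.

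Of the replication genes, Gins2, Cdt1 and Mcm2 passed the test. Mcm2, a subunit of the replicative helicase, was at 99.9, 118 and 156 CPM in controls and 72.8, 85.2 and 84.8 CPM in knockouts (log2 fold change -0.62, SE 0.15, adjusted p = 0.0209). Cdt1, which loads the helicase, was at 40.7, 39.0 and 56.5 CPM against 33.0, 28.1 and 26.3 CPM (log2 fold change -0.64, SE 0.16, adjusted p = 0.0239). Their groups did not overlap. Gins2, a subunit of the GINS helicase cofactor, was at 15.2, 15.5 and 23.0 CPM against 12.4, 10.1 and 11.3 CPM (log2 fold change -0.66, SE 0.20, adjusted p = 0.0454), but 67.3% of its exonic bases are shared with Gse1 on the other strand, and reads were counted without strand. The other helicase subunits, Mcm3 to Mcm7, ranged from -0.30 to 0.00 in log2 fold change and none passed the test. The median log2 fold change of the 13 replication genes was -0.46 and that of the 19 mitosis genes -0.50, and no difference between the roles was tested. The 10 replication genes not called ranged from -0.54 (Cdc6) to 0.00 (Mcm4). Among them Mcm5, Pcna, Orc1 and Rrm2 had groups that did not overlap. With the called genes this makes 7 of 13 lower without overlap, against 20.3% of all genes tested. Over 13 alternative settings the call was lost with the sign kept in 8 for Ttk, 7 for Gins2, 6 for Mcm2, 6 for Foxm1, 5 for Cdt1, 3 for Cdk1, 3 for Aurka and 1 for Plk1, and grouping by title turned the sign of Ttk, Gins2, Mcm2, Aurka, Plk1, Cdca8 and E2f1. Bub1, Birc5, Incenp, Ccnd1 and Mybl2 lost the call with the sign kept in 1 setting each, the grouping by title. In 1 model of all Figla samples 7 of the 40 genes were called instead of 15, and fewer of all genes were called too. With the replicate number added to the model as a block, more than 15 were called. The labels do not say that same-numbered samples belong together.

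Ccnd1, cyclin D1, was the 1 gene that rose in the P0 Figla knockouts. It was at 19.8, 18.8 and 22.2 CPM in controls and 48.0, 46.6 and 54.6 CPM in knockouts (log2 fold change 1.30, SE 0.13, adjusted p = 8.45e-05). The lowest knockout was above every control. Overlap on the other strand covers 23.4% of its exonic bases. Ccnd2 and Ccnd3, the other D cyclins, had log2 fold changes of 0.29 and 0.27 with groups that did not overlap, and adjusted p of 0.0659 and 0.121. Ccne1 and Ccne2, the E cyclins, were at -0.30 and 0.29 and did not pass.

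**Figure D2:**
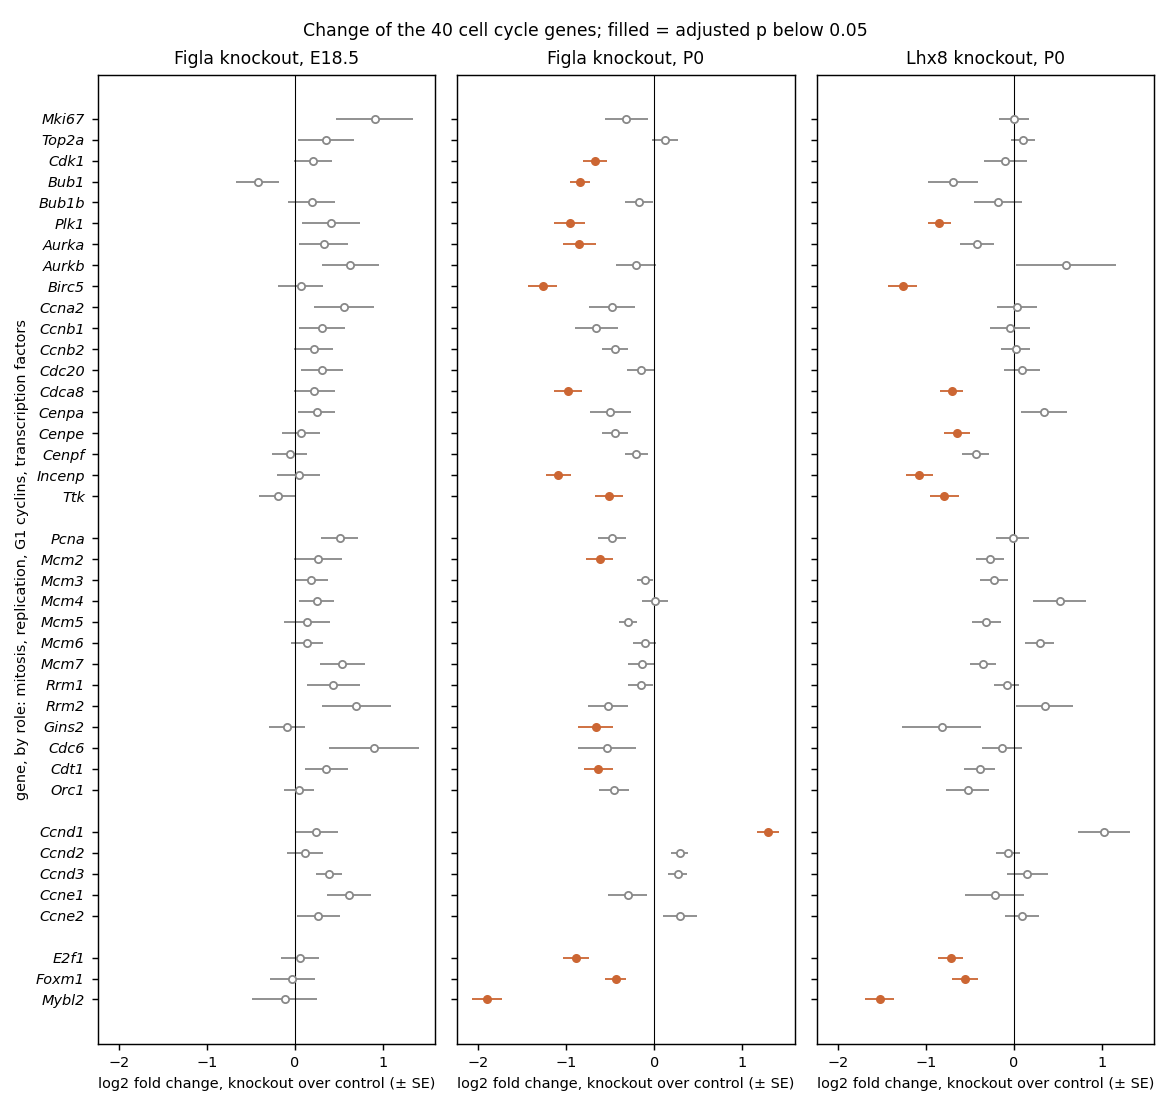
Log2 fold change of knockout over control (horizontal axis, with standard errors as bars) for the 40 genes, listed by role, in the 3 knockout comparisons; filled points passed the adjusted threshold. At P0 the filled points lie left of 0 except Ccnd1 in the Figla set, and there are 0 filled points at E18.5.

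Other samples and cell types moved alongside these calls. Control replicate 3 of the Figla P0 set had the highest sum of the mitosis genes (1735 CPM against 1288 and 1135 in the other controls and 927, 1110 and 1012 in knockouts), and the highest summed erythroid markers (1222 CPM against 156 and 401, with 218, 923 and 644 in knockouts). Without that sample 10 of the 40 genes were called, and without knockout replicate 3, 8 were. Calls over all genes also changed with the sample left out, as given in the last section. Germ cell markers were lower in the knockouts, 6 of 10 called, with sums of 1386 to 1853 CPM in controls and 1005 to 1040 CPM in knockouts, and Nobox at 0 in 1 knockout. That list holds Figla itself. Stroma markers were higher for 6 of 8 genes (3686 to 4524 CPM in controls, 5340 to 6023 in knockouts), as were 4 of 7 endothelial, 2 of 8 pregranulosa, 1 of 6 surface epithelium and 1 of 6 tested macrophage markers, and 0 of 9 erythroid markers passed the test (0 also at an unadjusted p under 0.05). Their part in the result was not tested.

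**Figure D3:**
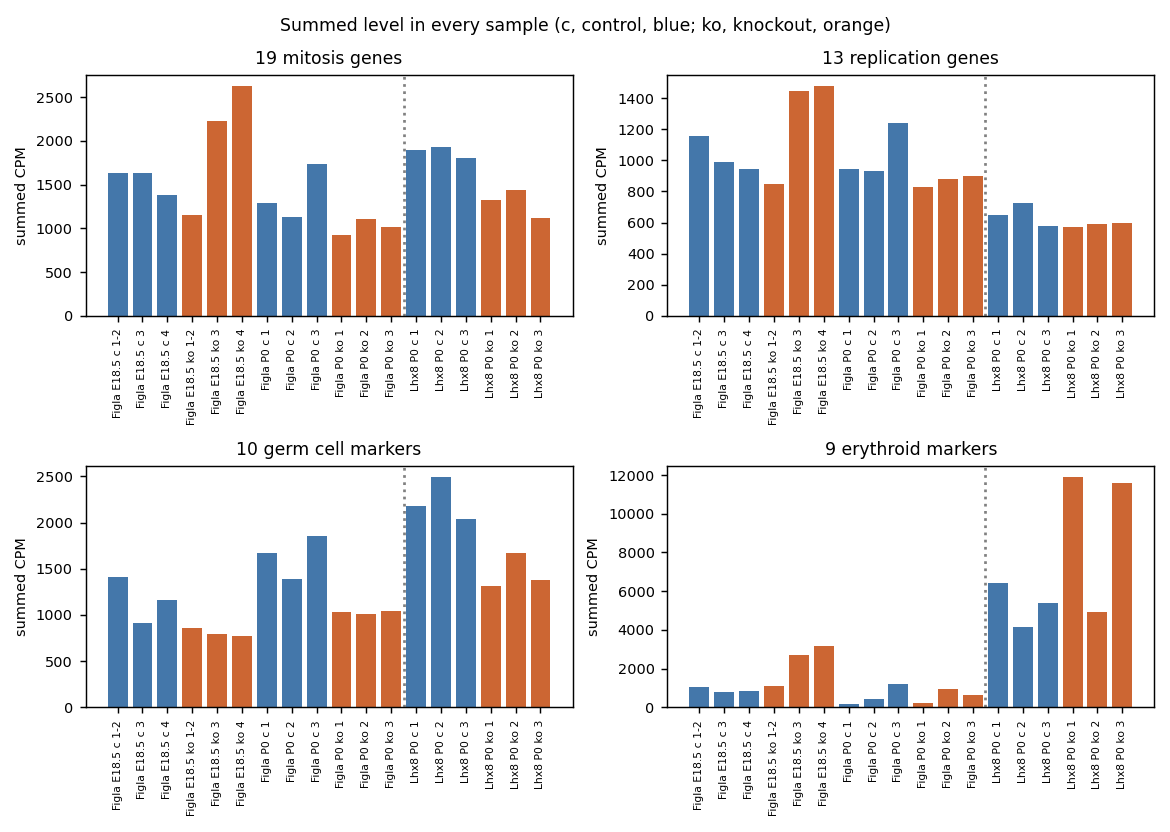
Summed CPM (vertical axis, from 0) of the 19 mitosis genes, the 13 replication genes, 10 germ cell markers and 9 erythroid markers in every sample, controls in blue and knockouts in orange, with the 2 kits split by the dotted line. E18.5 knockout replicates 3 and 4 are high in mitosis genes and erythroid markers, and the germ cell sums are lower in knockouts than in controls in every set.

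In a further list of 122 cell cycle genes, 48 were lower and 3 higher in P0 Figla knockouts, against 10.9% and 5.12% of all genes tested, with a median log2 fold change of -0.41. The 5 with the smallest adjusted p were Spc24 (-1.67, adjusted p = 2.15e-05), Kif4 (-1.97, adjusted p = 6.45e-05), Prc1 (-1.96, adjusted p = 0.000180), E2f5 (-1.63, adjusted p = 0.000185) and Cdca5 (-1.46, adjusted p = 0.000291), where the values are log2 fold changes. Kif4 and Prc1 build the spindle midzone, and Spc24 is a kinetochore subunit. The higher genes were Cdk4 (0.36) and Cdk6 (0.42), the partners of D cyclins, and Cdkn1c (1.18), a cyclin kinase inhibitor. The list was chosen with earlier results of these data known.

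Ovaries without Lhx8 at P0 had lower levels of 9 of the 40 genes, and none rose (0 higher in edgeR, 1 at an unadjusted p under 0.05 and 1 in DESeq2). They were the same 3 transcription factors and 6 of 19 mitosis genes, with 0 of 13 replication genes passing (1 lower at an unadjusted p under 0.05, 0 in DESeq2). Over the 15274 genes tested, 10.4% were called, 7.29% lower and 3.06% higher. The log2 fold change was below 0 for 27 of the 40, with a median of -0.20 against 0.05 over all genes tested, and the groups did not overlap for 12 genes lower and 1 higher, against 18.1% and 15.6% of all genes.

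Mybl2 was again the largest fall, at 52.7, 45.3 and 38.0 CPM in controls and 15.6, 15.9 and 15.6 CPM in Lhx8 knockouts (log2 fold change -1.53, SE 0.17, adjusted p = 0.000383). The 3 knockouts were nearly equal and the lowest control was over the highest knockout. E2f1 was at 90.3, 93.6 and 71.4 CPM against 49.6, 52.1 and 53.3 CPM (log2 fold change -0.72, SE 0.14, adjusted p = 0.0113). Foxm1 was at 37.5, 41.6 and 33.4 CPM against 23.9, 27.1 and 25.4 CPM (log2 fold change -0.56, SE 0.15, adjusted p = 0.0432).

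The same 3 subunits of the passenger complex were lower in Lhx8 knockouts. Birc5 was at 371, 347 and 371 CPM in controls and 143, 187 and 123 CPM in knockouts (log2 fold change -1.26, SE 0.16, adjusted p = 0.00103), and Incenp at 178, 164 and 147 CPM against 67.6, 91.1 and 73.8 CPM (log2 fold change -1.07, SE 0.15, adjusted p = 0.00172). Cdca8 was at 145, 154 and 143 CPM against 84.4, 102 and 83.7 CPM (log2 fold change -0.71, SE 0.13, adjusted p = 0.00828). All 3 had no overlap between groups. Aurkb was at a low level in these libraries, with 0.620 to 2.83 CPM over the 6 samples.

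The 3 remaining mitosis genes called were kinases and a spindle motor. Plk1 was at 90.5, 88.8 and 88.2 CPM in controls and 50.1, 54.4 and 44.2 CPM in knockouts (log2 fold change -0.85, SE 0.13, adjusted p = 0.00290), and Ttk at 148, 138 and 111 CPM against 65.5, 88.7 and 75.2 CPM (log2 fold change -0.79, SE 0.16, adjusted p = 0.0136). Cenpe, a kinetochore motor, was at 184, 213 and 170 CPM against 112, 140 and 112 CPM (log2 fold change -0.65, SE 0.15, adjusted p = 0.0220). Mki67 (log2 fold change 0.00, SE 0.17) and Top2a (0.10, SE 0.13) did not pass. The 13 mitosis genes not called ranged from -0.69 (Bub1) to 0.60 (Aurkb), the 13 replication genes from -0.82 (Gins2) to 0.52 (Mcm4), and the G1 cyclins other than Ccnd1 from -0.22 (Ccne1) to 0.15 (Ccnd3). Foxm1 lost its call in 7 of 11 alternative settings. Ccnd1 was at 4.08, 6.45 and 4.39 CPM in controls and 12.97, 9.40 and 7.82 CPM in knockouts, with no overlap, a log2 fold change of 1.02 (SE 0.30) and an adjusted p of 0.0548 in edgeR; it passed in DESeq2.

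The count fell most without 1 of 2 controls. Without Lhx8 control replicate 1, 5 genes were called, and without control replicate 2, 4 were (Mybl2, Plk1, Birc5 and Incenp). Over all genes, too, fewer were called whenever any 1 Lhx8 sample was left out, as given in the last section. Germ cell markers were lower for 4 of 10 genes, with sums of 2034 to 2490 CPM in controls and 1311 to 1667 CPM in knockouts. Stroma markers were higher for 3 of 8 (2794 to 3222 CPM in controls, 4178 to 4671 in knockouts), and 1 of 7 tested pregranulosa and 1 of 6 surface epithelium markers were higher. Erythroid sums were 6428, 4150 and 5406 CPM in controls and 11880, 4932 and 11570 in knockouts, with Alas2 at 0 in 3 samples, Epb42 at 0 in 5 and Klf1 at 0 in 1. Their part in the result was not tested.

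Of the other cell cycle genes, 28 of 118 tested were lower in Lhx8 knockouts and 4 higher, against 7.29% and 3.06% of all genes tested. The 5 of smallest adjusted p were Ube2c (-1.66, adjusted p = 0.000126), Prc1 (-2.0, adjusted p = 0.000126), Kif4 (-2.0, adjusted p = 0.000129), E2f5 (-1.51, adjusted p = 0.000415) and Ncapg (-1.21, adjusted p = 0.00120), as log2 fold changes. The 4 higher were Cdkn1a (0.79), Cdkn1c (0.96), Cdkn2d (0.87) and Tfdp2 (0.47), of which the first 3 are cyclin kinase inhibitors.

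The lists from the separate knockouts shared 8 genes called lower: Plk1, Birc5, Cdca8, Incenp, Ttk, E2f1, Foxm1 and Mybl2. They are 57.1% of the 14 of the Figla comparison and 88.9% of the 9 of the Lhx8 comparison, and 26 of 40 genes (65.0%) were below 0 in both. Over the 14185 genes tested in both comparisons, 762 were called lower in both, which is 44.5% of the 1711 of Figla and 73.6% of the 1035 of Lhx8, and 35.2% were below 0 in both. Among the other cell cycle genes tested in both, 23 were shared, 48.9% of 47 and 82.1% of 28. No difference between these shares was tested. The knockouts had their own controls and different library kits, no model held both, and the difference between their effects was not tested.

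Before birth, at E18.5, none of the 40 genes passed the test in Figla knockouts. edgeR called 0 of 40 (0 also without the library labelled control replicate 3), against 0.00620% of the 16131 genes tested, and DESeq2 also called 0. At an unadjusted p under 0.05, 3 genes were higher (Pcna, Ccnd3 and Ccne1) and 0 lower, where 3.76% of all genes passed, 1.74% higher and 2.02% lower. The log2 fold change was above 0 for 34 of the 40, with a median of 0.25 against 0.01 over all genes (31 above 0 without that library, where 89 of 16761 genes passed), and the groups did not overlap for Pcna and Ccnd3, both higher, and for 0 lower, against 3.40% of all genes higher and 3.94% lower. The 3 genes with the largest log2 fold changes were Mki67, Cdc6 and Rrm2, and their E18.5 samples overlapped.

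Mki67 was at 396, 467 and 294 CPM in E18.5 controls and at 287, 794 and 1075 CPM in knockouts (log2 fold change 0.91, SE 0.44, adjusted p = 1.00). The knockout values split, with replicate 1-2 under the lowest control and replicates 3 and 4 above the highest. Cdc6 was at 26.7, 9.96 and 9.27 CPM against 14.0, 30.7 and 42.7 CPM (log2 fold change 0.90, SE 0.52). Rrm2, the ribonucleotide reductase subunit, was at 55.5, 29.7 and 24.8 CPM against 33.8, 63.9 and 81.2 CPM (log2 fold change 0.70, SE 0.39).

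The sums of the mitosis and replication genes were split in the same way. Mitosis genes summed to 1629, 1629 and 1385 CPM in controls and 1153, 2226 and 2627 CPM in knockouts, and replication genes to 1156, 990 and 945 CPM against 850, 1449 and 1478 CPM. The sums of the G1 cyclins and the transcription factors showed that split only in part. The cyclins summed to 987.4, 749.2 and 899.9 CPM in controls and 1082, 874.7 and 1032 CPM in knockouts, where replicate 1-2 was highest. Most of that sum is Ccnd2 (means of 631 and 677 CPM). By mean log2(CPM + 1) replicate 1-2 was the lowest knockout, at 6.17 with 6.34 and 6.48, against 6.16, 5.98 and 5.93 in controls. The factors summed to 131.4, 151 and 188.5 CPM against 102.9, 174 and 182.7 CPM. Replicate 1-2 was thus below every control, and no knockout was above the highest control. Erythroid markers were high in the same knockout replicates 3 and 4, at 1029, 803 and 844 CPM in controls and 1080, 2684 and 3154 CPM in knockouts, 8 of 9 higher at an unadjusted p under 0.05 and 0 after adjustment. Stroma markers set replicate 1-2 apart in both groups. They summed to 3400, 5382 and 6200 CPM in controls and 3562, 5520 and 5529 CPM in knockouts. Between the groups, 4 of the 8 stroma markers were above 0 and 4 below. Germ cell markers summed to 1406, 913 and 1160 CPM in controls and 855, 793 and 766.5 CPM in knockouts. The 913 CPM is the library labelled control replicate 3, whose mean log2(CPM + 1) over these markers was 5.14 against 6.64 and 6.57 in the other controls and 4.83, 4.76 and 4.90 in knockouts. The log2 fold change was below 0 for 9 of the 10 markers, with Dppa3 and Nobox each at 0 in 1 knockout. Their part in the result was not tested. Of the other cell cycle genes, 0 of 121 tested passed (5 higher and 1 lower at an unadjusted p under 0.05), and the 5 of smallest unadjusted p, all tied at an adjusted p of 1.00, were E2f2 (2.08), Cdkn2d (0.83), Cdkn2a (-1.19), Cdkn2c (0.89) and Cdc25b (1.2), as log2 fold changes.

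**Figure D4:**
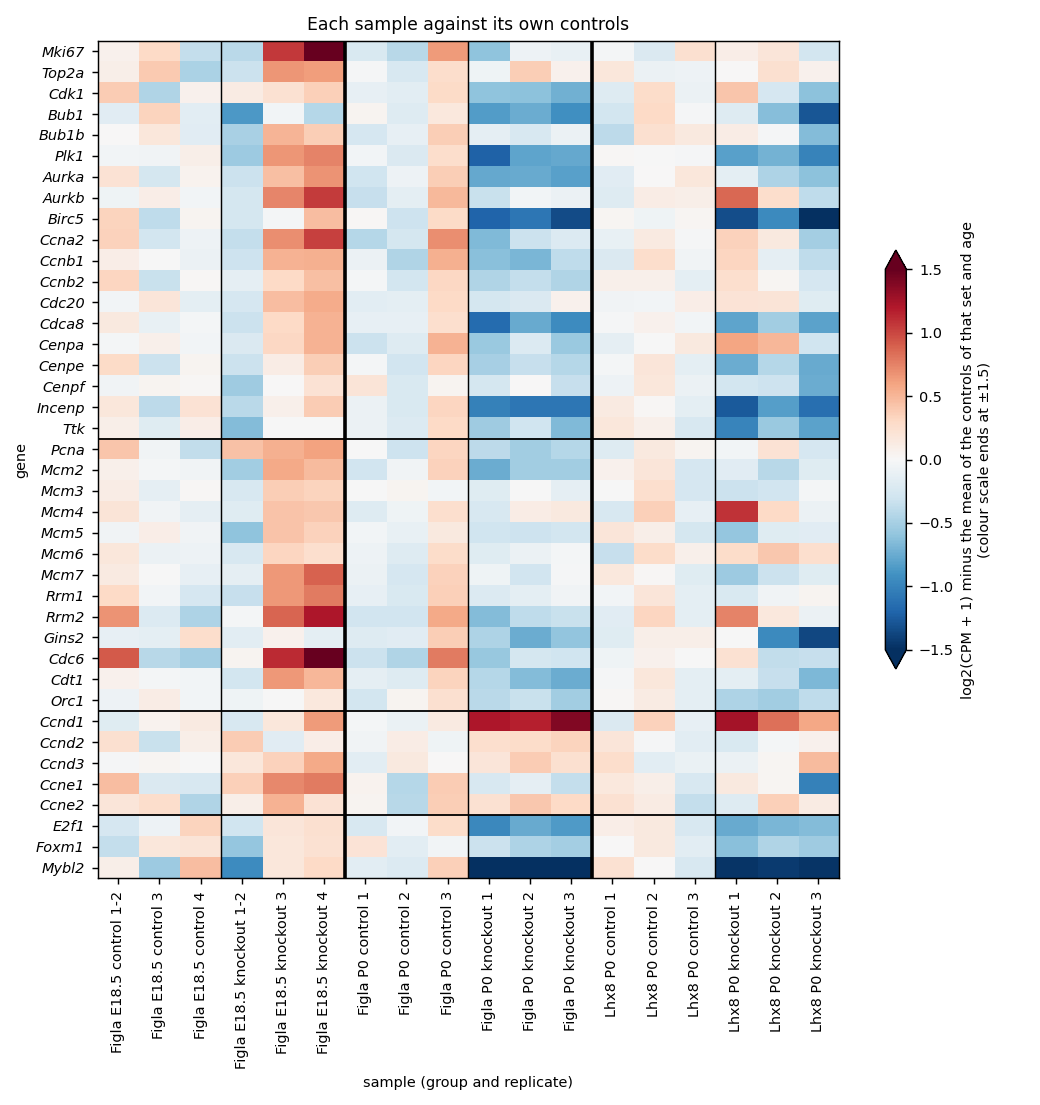
Colour shows log2(CPM + 1) of each gene (rows, by role) in each sample (columns) minus the mean of the controls of that set and age, on a scale that ends at ±1.5. E18.5 knockout replicates 3 and 4 are red in most rows while replicate 1-2 is mostly blue, and the P0 knockout columns of both sets are blue in Mybl2, Birc5, Cdca8 and Incenp and red in Ccnd1.

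Whether the effect of losing Figla differed between the ages was tested in 1 model of all Figla samples. No member passed (0 in edgeR and 0 in DESeq2), so the effects at the ages are not shown to differ gene by gene. At an unadjusted p under 0.05, 16 genes had a lower effect at P0 and 1, Ccnd1, a higher one, against 3.60% and 1.72% of the 18379 genes (5.32% in either direction). The log2 difference was below 0 for 37 of the 40, largest for Mybl2 (-1.76, SE 0.44), Cdc6 (-1.43, SE 0.69) and Plk1 (-1.36, SE 0.40), all with an adjusted p of 0.913. This contrast uses the same samples as the knockout comparisons. Of the other cell cycle genes 0 of 122 passed, with 41 lower at an unadjusted p under 0.05; the 5 of smallest unadjusted p, all tied at an adjusted p of 0.913, were Ube2c (-2.20), Ube2s (-0.83), Prc1 (-1.70), Spc24 (-1.26) and Dbf4 (-1.08).

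From E18.5 to P0, 0 of 40 genes passed in controls, as did 0 of 18379 genes, while 5 were higher and 2 lower at an unadjusted p under 0.05, against 23.1% of all genes in either direction. DESeq2 called 2, Mybl2 and Top2a, where it called 1616 over all genes. The largest were Mybl2 (log2 fold change 1.09, SE 0.31, adjusted p = 0.0809), Top2a (-0.85, SE 0.27, adjusted p = 0.0965) and Mki67 (-0.69, SE 0.40, adjusted p = 0.314). Mybl2 went from 35.6, 22.7 and 46.4 CPM to 65.2, 63.3 and 94.2 CPM, and Top2a from 217, 268 and 147 CPM to 114, 96.9 and 139 CPM. Neither gene's ages overlapped, with 22.7 and 268 CPM from the library labelled control replicate 3. The ages did not overlap for 4 of the 40 genes higher and 2 lower, against 14.8% and 12.9% of all genes tested. Markers below 0 were 9 of 9 erythroid (0 at an unadjusted p under 0.05), 7 of 7 endothelial and 7 of 8 stroma. So were 7 of 8 macrophage and 5 of 8 pregranulosa markers. Markers above 0 were 8 of 10 for germ cells and 5 of 6 for surface epithelium. Their part in the result was not tested. Of the other cell cycle genes 28 were higher and 7 lower at an unadjusted p under 0.05, and the 5 of smallest adjusted p were Gmnn (0.91), E2f5 (1.19), Ect2 (0.97), Cks2 (0.85) and Spc24 (0.81), with adjusted p from 0.0611 to 0.0866.

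In Figla knockouts, the log2 fold change from E18.5 to P0 was below 0 for 38 of the 40 genes, and 0 passed in edgeR, against 0.00544% of all genes, with 22 lower and 1 higher (Ccnd1) at an unadjusted p under 0.05, where 7.51% of all genes were lower and 5.11% higher (12.6% together). The ages did not overlap for 17 genes lower and 1 higher, against 9.66% and 9.72% of all genes. DESeq2 called 14. The largest were Mki67 (log2 fold change -1.91, SE 0.41, adjusted p = 0.158), Cdc6 (-1.91, SE 0.50, adjusted p = 0.175) and Rrm2 (-1.55, SE 0.36, adjusted p = 0.171). Without E18.5 knockout replicate 1-2, 13 genes were called. Erythroid markers were below 0 for 9 of 9, as in controls, with 7 at an unadjusted p under 0.05. Their median log2 fold change was -1.78, against -0.725 in controls, and their part in the result was not tested. Of the other cell cycle genes 48 were lower at an unadjusted p under 0.05, and Kif23 (-0.92), Nusap1 (-1.27), Cdc7 (-0.81), Gins1 (-0.99) and Tyms (-0.82) had the smallest adjusted p, from 0.158 to 0.171.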

How the data were processed

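RNA was measured by RNA-seq in 20 whole-ovary libraries. The authors deposited raw read counts per gene: per the file headers they were made with featureCounts 1.6.0 on GENCODE release M12 with strand ignored, and per the submitters' processing notes after trimming with cutadapt and alignment with HISAT2 to GRCm38.p5, without versions for those tools. Per the labels' protocols, a Nextera kit was used on cDNA for the Figla set and QuantSeq 3′, which reads transcript ends, for the Lhx8 set, so the kits were never in 1 model. Without strand, reads in bases that a gene shares with an antisense neighbour cannot be told apart by strand, and Ccnb1, Ccnb2, Ccnd3 and Pcna have pseudogene copies.

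The analysis used edgeR 4.0.16 (R 4.3.3): filterByExpr (minimum count 10, total 15), TMM scaling, quasi-likelihood test, Benjamini-Hochberg adjustment over all genes tested, threshold 0.05. SE is the log2 fold change over the square root of F. CPM are on TMM library sizes. Libraries of 1 group that differed by a chi-square under 2 per degree of freedom over genes with at least 50 counts were summed: the E18.5 pairs gave 1.117 and 1.322 (p = 2.96e-21 and 1.82e-134, so both still differed), and the 22 other pairs 6.618 to 62.27. All 40 genes are accounted for, with values for those called and the 3 largest in each comparison, and for a few others that were chosen after their values were seen (Aurkb, Top2a, Mki67, Ccnb2, Cenpe and the cyclins); other cell cycle genes are given by counts and the 5 of smallest adjusted p. Members and lists were chosen with earlier results of these data known. DESeq2 1.42.0, RLE scaling, no count filter, a replicate block, each sample left out in turn and other groupings were alternatives. The fits were tested on simulated counts with known changes. These were drawn independently for each sample, so they do not bear on the label conflict or on the replicate numbers.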

Additional observations from a re-analysis of the deposited data

How the results depend on the processing

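Grouping samples by title changed most. In the Lhx8 comparison 9 genes were still called but all were higher, with log2 fold changes of 0.85 (Plk1), 1.26 (Birc5), 0.71 (Cdca8), 0.65 (Cenpe), 1.07 (Incenp), 0.79 (Ttk), 0.72 (E2f1), 0.56 (Foxm1) and 1.53 (Mybl2), since title and library name are opposite in all 6 libraries. In Figla P0, 0 of 40 genes were called by title instead of 15, and Plk1 (0.0613), Aurka (0.0615), Cdca8 (0.00911), Ttk (0.10), Mcm2 (0.16), Gins2 (0.0416) and E2f1 (0.0153) changed sign. At E18.5 grouping by title called 1 gene instead of 0 (Foxm1), and keeping only libraries whose labels agree called 2 (Mki67 and Aurkb), with 1 control sample whose spread is assumed to be that of the knockouts. All 16 single-gene reversals, of 483 recomputed values, came from the titles; of the rest 389 kept their direction and side of the threshold, 59 lost the call and 19 gained it. Leaving the titles aside, Bub1, Birc5, Cdca8, Incenp, Ccnd1, E2f1 and Mybl2 were called under every alternative run in Figla P0, and Plk1, Birc5, Incenp and Mybl2 in Lhx8.

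Figla P0 gave 23 genes with no count filter and 7 in 1 model of all Figla samples (15 in the main analysis), and 8 to 20 with 1 sample left out. Lhx8 gave 4 to 10 (9 in the main analysis). P0 against E18.5 in controls gave 3 genes with no filter, 2 with DESeq2, 1 with no libraries summed and 0 to 2 with a sample left out, instead of 0; in knockouts it gave 15, 14 and 0 to 13 with no filter, DESeq2 and a sample left out. The difference between ages gave 4 with no filter. The cause was not tested. Over all genes, E18.5 calls went from 1 to 229 with no filter, 78 with DESeq2, 28 with the block, 34 with each library its own sample, 18 without both samples numbered 3, 53 in 1 model, 1082 with agreeing labels and 1093 by title; P0 from 2767 to 1363 in 1 model, 1835 with agreeing labels and 0 by title; Lhx8 from 1582 to 2682 with no filter; controls by age from 0 to 1252, 1616 and 1490 with no filter, DESeq2 and each library its own sample; knockouts by age from 1 to 530, 309 and 16; and the difference from 0 to 63 and 3 with no filter and DESeq2. With 1 sample left out they ranged from 0 to 89, 1423 to 2882, 630 to 1490, 0 to 556, 0 to 150 and 0 in the same order.

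Replicate numbers follow the order of deposit in the Figla set and the library names in the Lhx8 set. Deviations of same-numbered samples correlated at 0.575, 0.525 and 0.259 (E18.5), 0.389, 0.288 and 0.392 (P0) and -0.154, 0.0471 and 0.0381 (Lhx8), and in the Figla set every sample correlated best with its own number, a hint from the data and not from the design. With the replicate number as a block, 0, 23 and 8 of the 40 genes were called, and 28, 4680 and 931 of all genes.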
